A study of Homo sapiens with 9 samples.

Results

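Tight junctions and adherens junctions hold neighbouring epithelial cells together, and 10 genes of these structures were followed across irradiated KYSE180 cells with and without hairpins against EZH2. The genes were chosen by symbol for their roles: the claudins CLDN1, CLDN3, CLDN4 and CLDN7, occludin (OCLN), the scaffolds TJP1 and TJP3, the polarity protein CRB3, E-cadherin (CDH1) and the epithelial cell adhesion molecule EPCAM. Each matched 1 Ensembl identifier among the 57905 genes of the count table. After a filter on low counts 13252 genes were tested, 8 of the 10 among them; CLDN3 and OCLN were too low.

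KYSE180 is a human esophageal squamous cell carcinoma line, described in the title of the series as lacking KDM6A, the demethylase that opposes EZH2. Every culture received 6 Gy of ionizing radiation, so no result here separates an effect of radiation. There were 3 groups of 3 libraries of polyadenylated RNA: shluc (a hairpin against luciferase, the control), shEZH2#1 and shEZH2#3 (hairpins against EZH2, the methyltransferase of Polycomb repressive complex 2). A genotype label calls the EZH2 groups knockouts and the controls WT, whereas the titles speak of hairpins; the groups follow the titles. Whether replicates came from different cultures is not stated, and the p-values therefore cover the library-to-library spread alone, which may be technical. All groups come from 1 cell line.

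Claudins are membrane proteins that seal the space between cells or form ion-selective pores in it, and occludin is their neighbour in the same strands. TJP1 (ZO-1) and TJP3 (ZO-3) tie these strands to actin, and CRB3 marks the apical side of the cell, next to the tight junction. E-cadherin forms the adherens junction below, and EPCAM is a cell surface glycoprotein of epithelia that binds CLDN7. Loss of E-cadherin, claudins and CRB3 is a textbook feature of the epithelial-mesenchymal transition, in which SNAI and ZEB repressors bind E-box sequences in their promoters.

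Promoter windows of 300 bases, from 250 before to 50 after a transcription start, were available for 8 of the genes in RefSeq (GRCh38.p14), 14 windows in all, as some genes have several starts; CDH1 and EPCAM had none. They were searched for the E-box CAGGTG and its reverse complement CACCTG, which reads the same site on the other strand. Of all 35114 windows 20.6% held at least 1 such match, against 7 of these 14, which belonged to 6 of the 8 genes. A match is a stretch of letters, not a shown binding site. The windows below are printed 5′ to 3′ with the E-boxes in capitals, for 3 genes that rose with at least 1 EZH2 hairpin (CLDN4, CLDN7 and CRB3) and 1 that fell (TJP1).
CLDN4, chr7:73830746-73831045, plus strand: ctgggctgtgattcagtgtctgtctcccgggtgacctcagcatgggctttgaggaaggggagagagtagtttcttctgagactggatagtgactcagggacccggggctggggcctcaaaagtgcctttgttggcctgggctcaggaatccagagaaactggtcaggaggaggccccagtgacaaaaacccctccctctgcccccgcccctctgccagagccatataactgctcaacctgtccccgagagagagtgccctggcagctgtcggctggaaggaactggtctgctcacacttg
CLDN7, chr17:7262429-7262728, minus strand: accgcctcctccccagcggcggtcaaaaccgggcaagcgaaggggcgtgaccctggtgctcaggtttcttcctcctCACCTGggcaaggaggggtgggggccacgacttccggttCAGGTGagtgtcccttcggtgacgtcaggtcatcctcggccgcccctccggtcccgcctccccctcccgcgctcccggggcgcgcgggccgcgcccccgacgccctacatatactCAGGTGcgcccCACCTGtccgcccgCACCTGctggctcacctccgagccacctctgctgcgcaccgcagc
CRB3, chr19:6464021-6464320, plus strand: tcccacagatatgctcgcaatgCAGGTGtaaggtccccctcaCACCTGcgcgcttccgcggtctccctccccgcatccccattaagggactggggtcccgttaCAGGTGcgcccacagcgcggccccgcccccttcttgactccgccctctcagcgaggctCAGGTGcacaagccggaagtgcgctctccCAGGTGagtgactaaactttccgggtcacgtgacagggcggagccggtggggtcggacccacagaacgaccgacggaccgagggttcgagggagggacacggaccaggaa
TJP1, chr15:29969000-29969299, minus strand: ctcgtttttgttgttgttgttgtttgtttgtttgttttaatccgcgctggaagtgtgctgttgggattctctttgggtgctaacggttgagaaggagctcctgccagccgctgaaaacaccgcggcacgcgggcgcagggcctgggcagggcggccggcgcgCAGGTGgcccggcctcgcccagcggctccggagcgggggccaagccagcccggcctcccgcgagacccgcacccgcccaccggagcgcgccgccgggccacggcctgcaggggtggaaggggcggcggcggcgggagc
The CLDN7 window held 5 E-boxes, with first bases at -174, -135, -20, -9 and 6 relative to the start site, and the CRB3 window also held 5, at -228, -208, -147, -89 and -60. The TJP1 window held 1, at -88. None was found in the CLDN4 window. CpG sites, where DNA methylation occurs, were at 0.19 of the number expected from base composition in the CLDN4 window and at 0.81, 0.81 and 0.94 in those of CLDN7, CRB3 and TJP1. The median over all windows was 0.58. CLDN7 and TJP1 have several windows, and the one with E-boxes is shown for each. The other CLDN7 window held no E-box and had a CpG ratio of 0.39, and the 3 other TJP1 windows held none, with ratios of 0.96, 0.72 and 0.32. TJP3, which rose with both hairpins, is not printed. Its window from 3708134 held no E-box (CpG ratio 0.41), and that from 3721487 held 1, at -7 (0.67). Whether E-boxes go with the direction of change was not tested.

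Library totals ran from 14958011 to 21152006 estimated counts, and 1 count was worth 0.0399 to 0.0735 CPM (CPM are counts scaled to a common library size, with totals adjusted by the trimmed mean of M-values, TMM). EZH2 averaged 19.3 CPM in the controls, against 10.1 for shEZH2#1 and 9.94 for shEZH2#3, a log2 fold change of -0.94 ± 0.18 (SE) and -0.96 ± 0.18. These passed edgeR's quasi-likelihood test with Benjamini-Hochberg adjustment over all tested genes, the test behind every adjusted p below (adjusted p = 0.00163 and 0.000433; threshold 0.05). Fold changes in this series follow GC content, with a rank correlation of 0.47 for shEZH2#1 and 0.69 for shEZH2#3 against shluc. Per library, the deviation of each gene's log2 CPM from its mean over the 9 libraries was rank-correlated with GC content. This correlation ranged from -0.69 to -0.39 in the controls, from -0.25 to 0.25 for shEZH2#1 and from 0.37 to 0.64 for shEZH2#3. Because the mean is shared, low values in some libraries go with high values in others. This trend cannot be told apart from the groups, so values after a correction for GC content and transcript length are given for the named genes where they end a call or move a fold by more than 1.5 times. Marker genes other than KRT19 and CDH5, and the genes that overlap CLDN7 or CRB3, are given without this correction. Corrected, EZH2 had -0.73 ± 0.15 with shEZH2#1 and -0.56 ± 0.15 with shEZH2#3 (adjusted p = 0.00398 and 0.0134).

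The labelled cell type was checked against marker genes. Of 10 squamous markers, KRT17, SFN and PERP were above 1 CPM in every group, whereas KRT5, KRT14, TP63 and SOX2 stayed below 1 CPM in each. The simple epithelial keratins KRT8, KRT18 and KRT7 averaged 1640 to 6300 CPM, and the mesenchymal filament VIM 345 to 477. PTPRC, CD3E and KDR, which define immune and endothelial cells, had no count in any library. The endothelial cadherin CDH5 was present, at 7.13 to 31.7 CPM.

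The junction genes fell into 3 tiers in the control cells. Per kilobase of the longest coding transcript, mean levels in shluc were 23.7 CPM for CLDN7, 13.4 for CRB3, 11.1 for CLDN4 and 7.27 for TJP3. CLDN1 (2.78), EPCAM (2.18), TJP1 (1.43) and CDH1 (1.06) formed a lower tier. OCLN (0.035) and CLDN3 (0.0355) were close to nothing. In that order CRB3 and CLDN4 overlapped in their libraries (9.48 to 15.6 against 9.51 to 12.1 CPM per kb), and CLDN1 and EPCAM touched at 2.43. TJP1 and CDH1 also overlapped (1.08 to 1.91 against 1.03 to 1.09). For CLDN4 the transcript used has 4.16 kb, and its gene model starts at 73799542, far before the promoter window at 73830746 to 73831045. A shorter transcript would give CLDN4 a higher level per kilobase, so its place in the order depends on this choice. Its GC content and correction rest on the same transcript.

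**Figure D1:**
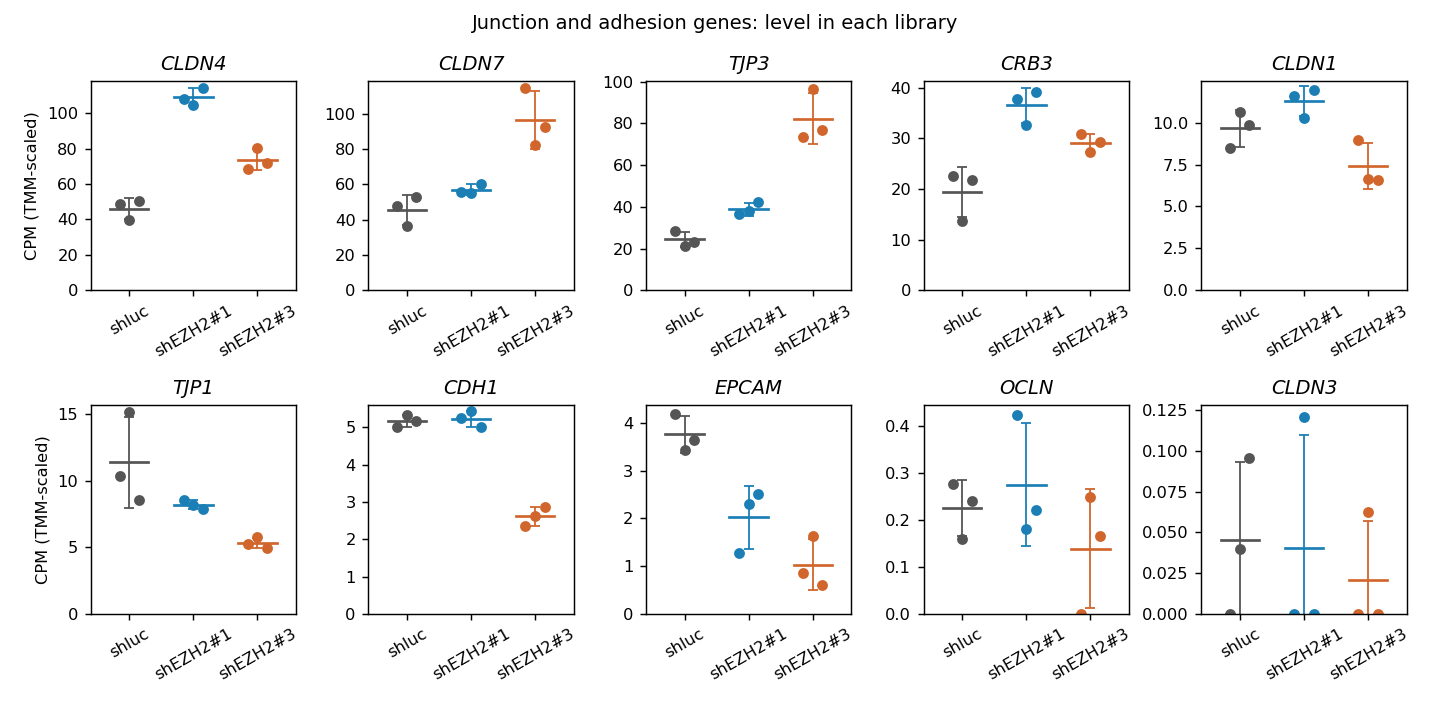
Level of the 10 junction and adhesion genes in each of the 9 libraries, in CPM on a linear axis from 0 (each gene has its own axis). Points are libraries, horizontal lines group means and bars ± SD (n = 3). CLDN4, CLDN7, TJP3 and CRB3 are higher in shEZH2#3 than in all shluc libraries, TJP1, CDH1 and EPCAM lower; OCLN and CLDN3 rest on 0 to 7 counts a library.

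With shEZH2#1, 3 of the 10 genes rose (CLDN4, CRB3 and TJP3) and none fell, 5 did not pass the test and 2 were not tested. In this comparison 19.0% of all tested genes passed, 11.2% higher and 7.89% lower. With shEZH2#3, 4 rose (TJP3, CLDN7, CLDN4 and CRB3), 3 fell (EPCAM, TJP1 and CDH1) and 1 tested gene, CLDN1, did not pass, beside 44.2% of all tested genes (24.4% higher and 19.8% lower). The tested members' median log2 fold change was 0.27 with shEZH2#1 and 0.10 with shEZH2#3, against -0.07 and -0.01 over all tested genes. All 8 tested genes lay at 0.608 CPM or above in every library. The comparisons share the shluc libraries, so they are not independent of each other. In bulk RNA, fewer cells that express a gene and less of its RNA per cell cannot be told apart.

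**Figure D2:**
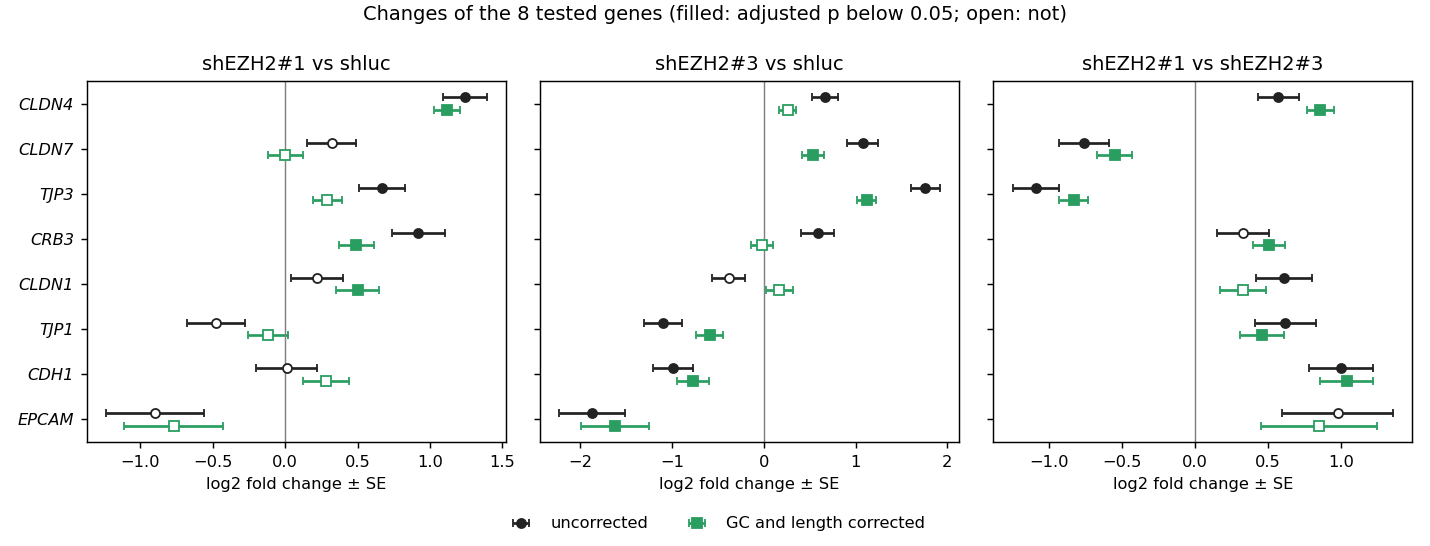
Log2 fold change ± SE (x axis) of the 8 tested genes in 3 comparisons, before (black circles) and after (green squares) correction for GC content and transcript length. Filled symbols have an adjusted p below 0.05. CLDN4 is highest with shEZH2#1 and TJP3 with shEZH2#3, while CDH1 and EPCAM are lower with shEZH2#3 in both fits.

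CLDN4, a claudin of many simple epithelia and of carcinomas, rose with both hairpins and more with shEZH2#1. It is encoded on chromosome 7 (73799542 to 73832693, plus strand, GRCh38). The control libraries gave 48.6, 39.6 and 50.3 CPM (replicates 1 to 3, an order kept throughout), those of shEZH2#1 gave 108, 105 and 115, and those of shEZH2#3 gave 68.7, 80.2 and 72.1. The 3 groups did not overlap, with shEZH2#1 on top. This is a log2 fold change of 1.24 ± 0.15 for shEZH2#1 (2.36-fold, adjusted p = 2.78e-05) and of 0.67 ± 0.14 for shEZH2#3 (1.6-fold, adjusted p = 0.00123). The hairpins differed by 0.57 ± 0.14 (adjusted p = 0.00705). After the GC and length correction the rise with shEZH2#1 was 1.12 ± 0.09 (adjusted p = 1.02e-05), while that with shEZH2#3 was 0.26 ± 0.09 and no longer passed (adjusted p = 0.0522). The corrected difference between the hairpins was 0.86 ± 0.09 (adjusted p = 1.77e-05).

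CLDN7, the claudin that binds EPCAM, rose with shEZH2#3 (chromosome 17, 7259903 to 7263983, minus strand). Control libraries held 47.6, 36.1 and 52.9 CPM, those of shEZH2#1 55.4, 55.2 and 60.3, and those of shEZH2#3 114, 82 and 92.6. All shEZH2#3 libraries stood above all others, and shEZH2#1 lay just above the controls. For shEZH2#3 the log2 fold change came to 1.08 ± 0.17 (2.12-fold, adjusted p = 8.11e-05). For shEZH2#1 it came to 0.32 ± 0.17, which did not pass (95% interval -0.00 to 0.65, adjusted p = 0.181). The hairpins differed by -0.76 ± 0.17 (shEZH2#1 minus shEZH2#3, adjusted p = 0.00234). With the GC and length correction CLDN7 was 0.54 ± 0.12 higher with shEZH2#3 (adjusted p = 0.00533) and stood at -0.00 ± 0.12 with shEZH2#1. CLDN7 overlaps ELP5 on the opposite strand, and the strand setting behind the counts is unknown here; ELP5 passed with neither hairpin (0.26 ± 0.16 and 0.29 ± 0.16, adjusted p = 0.252 and 0.129).

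CLDN1, the claudin on which the barrier of stratified epithelia such as skin depends, passed the test against shluc with neither hairpin (chromosome 3, 190305701 to 190322475, minus strand). It gave 8.48, 10.6 and 9.87 CPM in the controls; the shEZH2#1 libraries held 11.6, 10.3 and 12, the shEZH2#3 libraries 8.98, 6.67 and 6.57. Both hairpin groups overlapped the controls, but not each other. Its log2 fold change came to 0.22 ± 0.18 for shEZH2#1 (95% interval -0.13 to 0.58, adjusted p = 0.416) and -0.38 ± 0.18 for shEZH2#3 (-0.74 to -0.02, adjusted p = 0.0949). The hairpins differed by 0.61 ± 0.19 (adjusted p = 0.0219). That call was lost after the correction (0.33 ± 0.16, adjusted p = 0.132), when CLDN1 was called higher with shEZH2#1 (0.50 ± 0.15, adjusted p = 0.034) and stood at 0.17 ± 0.15 with shEZH2#3 (adjusted p = 0.47). It was also lost when any 1 of shEZH2#1 replicates 1 and 3 or shEZH2#3 replicates 2 and 3 was left out (adjusted p = 0.0839, 0.0662, 0.0901 and 0.0882). Without shEZH2#3 replicate 1, the highest of its group, CLDN1 was called lower with that hairpin (-0.54, adjusted p = 0.0365), as it was with upper quartile scaling (-0.55, adjusted p = 0.0316).

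CLDN3, a close relative of CLDN4 and its neighbour on chromosome 7 (73768997 to 73770270, minus strand), was barely detected. Over 3 libraries its counts summed to 3 for the controls, 2 for shEZH2#1 and 1 for shEZH2#3, with 0 counts in 5 of the 9 libraries. OCLN, whose protein is the founding member of the tight junction strand, had 6.41, 4 and 5 counts in the control libraries, 7, 3.1 and 3.11 for shEZH2#1, then 0, 4 and 3 for shEZH2#3 (chromosome 5, 69492292 to 69558104, plus strand). Its levels, 0 to 0.423 CPM, overlapped between all groups. A count of 0 in a library allows up to 3 counts, which is 0.12 to 0.22 CPM here and covers counting error only, so no difference in these 2 genes was detectable at this depth.

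TJP3 rose with both hairpins, and its increase with shEZH2#3 was the largest of the 8 tested genes (chromosome 19, 3708109 to 3750813, plus strand). Control libraries measured 28.6, 21.4 and 23 CPM, shEZH2#1 libraries 36.4, 37.8 and 42.2, and shEZH2#3 libraries 73.6, 96.6 and 76.9. The 3 groups were separate and rose in that order. It was 0.67 ± 0.16 higher on the log2 scale for shEZH2#1 (1.59-fold, adjusted p = 0.00665) and 1.76 ± 0.16 higher for shEZH2#3 (3.38-fold, adjusted p = 1.5e-06). The difference between hairpins was -1.09 ± 0.16 (adjusted p = 6.19e-05). After the GC and length correction TJP3 was at 0.29 ± 0.10 with shEZH2#1 (adjusted p = 0.0614, no longer called) and 1.12 ± 0.10 with shEZH2#3 (adjusted p = 1.45e-05).

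TJP1, the other scaffold, fell with shEZH2#3 (chromosome 15, 29699367 to 29968865, minus strand). The controls gave 10.4, 15.2 and 8.58 CPM, shEZH2#1 gave 8.53, 8.15 and 7.86, and shEZH2#3 gave 5.26, 5.74 and 4.97. The controls were spread widely, and shEZH2#1 lay just below the lowest of them, while shEZH2#3 stood apart. TJP1 fell with shEZH2#3 (-1.10 ± 0.21, 0.467 of the control level, adjusted p = 0.000437). For shEZH2#1 its value of -0.48 ± 0.20 did not pass (95% interval -0.88 to -0.08, adjusted p = 0.105). Single controls decided that value: it passed without shluc replicate 3, the lowest control (-0.65, adjusted p = 0.0285), and was -0.22 without replicate 2, the highest (adjusted p = 0.477). After the GC and length correction the values were -0.59 ± 0.15 (adjusted p = 0.0103) and -0.12 ± 0.14 (adjusted p = 0.615). The hairpins differed by 0.62 ± 0.21 (adjusted p = 0.0378), a call lost with limma-voom (adjusted p = 0.0619) and without any 1 of shluc replicate 1 and the 6 hairpin libraries (adjusted p = 0.052 to 0.124).

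CRB3 rose with both hairpins (chromosome 19, 6463777 to 6467221, plus strand). The controls had 22.5, 13.7 and 21.8 CPM, shEZH2#1 37.9, 32.7 and 39.2, and shEZH2#3 30.8, 27.3 and 29.2. Neither hairpin group overlapped the controls, of which replicate 2 was the lowest, and shEZH2#1 stood above shEZH2#3. CRB3 was 0.92 ± 0.18 higher with shEZH2#1 (1.89-fold, adjusted p = 0.0016) and 0.59 ± 0.18 higher with shEZH2#3 (1.51-fold, adjusted p = 0.0118). Without shluc replicate 2 the latter was 0.39 (adjusted p = 0.0499). The hairpins differed by 0.33 ± 0.18, which did not pass (95% interval -0.02 to 0.67, adjusted p = 0.184) unless GC content and length were corrected for (0.51 ± 0.11, adjusted p = 0.00455), upper quartile scaling was used (0.49, adjusted p = 0.0387) or only these groups were fitted (0.36, adjusted p = 0.0415). With the correction the rise with shEZH2#1 was 0.49 ± 0.12 (adjusted p = 0.00956) and the call with shEZH2#3 was lost, at -0.02 ± 0.12 (adjusted p = 0.923). CRB3 overlaps SLC25A23 and DENND1C on the opposite strand. Both rose with shEZH2#3 (1.21 ± 0.14 and 1.48 ± 0.22, adjusted p = 9.82e-06 and 6.84e-05) and neither passed with shEZH2#1 (0.20 ± 0.14 and 0.05 ± 0.23), so with an unknown strand setting the CRB3 counts in shEZH2#3 are uncertain.

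CDH1, the cadherin of epithelial adherens junctions, fell with shEZH2#3, and the hairpins differed (chromosome 16, 68737225 to 68835548, plus strand). Control libraries held 5.02, 5.34 and 5.17 CPM, the shEZH2#1 libraries 5.26, 5.43 and 5, and the shEZH2#3 libraries 2.35, 2.62 and 2.87. The shEZH2#3 libraries were all lower than the other 6, which overlapped. Its log2 fold change came to -0.99 ± 0.22 for shEZH2#3 (0.505 of the control level, adjusted p = 0.00149) and to 0.01 ± 0.21 for shEZH2#1 (95% interval -0.39 to 0.42, adjusted p = 0.971). The difference between hairpins was 1.00 ± 0.22 (adjusted p = 0.00251). After the GC and length correction these were -0.77 ± 0.17 (adjusted p = 0.00563) and 0.28 ± 0.16 (adjusted p = 0.282) against shluc. Each library held 41 to 134 counts of CDH1.

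EPCAM fell with shEZH2#3 and had the largest log2 fold change of the 8 tested genes there (1.87 in size, against 1.76 for TJP3; chromosome 2, 47345158 to 47387601, plus strand). It was low throughout: the controls held 4.19, 3.43 and 3.64 CPM, shEZH2#1 held 1.27, 2.29 and 2.5, and shEZH2#3 held 0.858, 1.62 and 0.608. All 6 hairpin libraries lay below all controls, and the hairpin groups overlapped. This amounted to -1.87 ± 0.36 for shEZH2#3 (0.273 of the control level, adjusted p = 0.000461). For shEZH2#1 it amounted to -0.90 ± 0.34, which did not pass (95% interval -1.56 to -0.24, adjusted p = 0.0657). The value for shEZH2#1 passed with limma-voom (adjusted p = 0.039), with no filter (0.0345), when only these groups were fitted (0.0289) and without shEZH2#3 replicate 1 or 2 (0.0428 and 0.0469). The hairpins differed by 0.98 ± 0.38, short of the threshold (95% interval 0.24 to 1.72, adjusted p = 0.0629); without shEZH2#1 replicate 1 or shEZH2#3 replicate 2 it passed (1.24 and 1.45, adjusted p = 0.0378 and 0.0175), as it did with upper quartile scaling and with no filter (adjusted p = 0.033 and 0.0483). Counts of EPCAM were 11 to 38 in the hairpin libraries. KRT19, a keratin of simple epithelia, was lower in the same groups (mean 7.03 CPM for the controls, 2.16 for shEZH2#1, 0.953 for shEZH2#3; adjusted p = 0.0179 and 0.000306); its part in these values was not tested. Corrected for GC content and length, the log2 fold change of KRT19 went from -1.69 to -2.14 with shEZH2#1 and from -2.89 to -3.53 with shEZH2#3 (adjusted p = 0.00732 and 0.000441). Other simple epithelial keratins went the other way or did not pass. Uncorrected, KRT8 rose with shEZH2#3 from 4500 to 6300 CPM (0.49, adjusted p = 0.0228) and KRT18 from 3010 to 4660 (0.63, adjusted p = 0.00362), while KRT7 had -0.04 (adjusted p = 0.839). Whether these rises outlast the correction is not given here. VIL1 of the same marker list was lower with both hairpins, at 1.55 CPM in the controls, 0.357 with shEZH2#1 and 0.568 with shEZH2#3. Only its change with shEZH2#1 passed (-2.13 and -1.44, adjusted p = 0.0409 and 0.0792). CDX2 averaged 0.425, 0.109 and 0 CPM in these groups and was not tested. The summed level of the 6 markers of that list was 7810 to 10200 CPM in the control libraries, 11000 to 12400 for shEZH2#1 and 11300 to 13600 for shEZH2#3. That sum is carried by KRT8, KRT18 and KRT7 and does not show the genes that fell.

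Between the hairpins, 6 of the 8 tested members passed: CLDN1, CLDN4, TJP1 and CDH1 were higher with shEZH2#1, and CLDN7 and TJP3 higher with shEZH2#3. Of all tested genes 25.0% passed in this comparison, 9.46% higher and 15.5% lower with shEZH2#1. EZH2 itself differed by 0.02 ± 0.19 (adjusted p = 0.943). Libraries of shEZH2#1 and shluc did not overlap for 6 of the tested members, 4 of them higher and 2 lower with the hairpin, against 37.2% of all tested genes (18.3% higher and 18.9% lower). Those of shEZH2#3 and shluc did not overlap for 7, 4 higher and 3 lower, against 52.8% (26.9% and 26.0%). Between the hairpins 7 did not overlap, 5 higher and 2 lower with shEZH2#1, against 42.9% (19.7% and 23.2%). CLDN4, CRB3 and TJP3 were called higher with both hairpins, as were 7.99% of all tested genes; no member was called lower with both (3.26% of all genes) or in opposite directions (0.838%). In all, 11.3% of genes were called in the same direction with both.

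The genes that rose had GC-rich transcripts, and those that fell had GC-poor ones. GC content was 57.5% for CLDN4, 59.6% for CLDN7, 60.9% for CRB3 and 63.2% for TJP3, and 44.8% for TJP1, 47.0% for EPCAM and 48.6% for CDH1; CLDN1 had 41.5%. Tested genes within 2 percentage points of each of these values give the level of the trend. With shEZH2#3 the median log2 fold change of such genes was 0.66 around TJP3 (1.76 itself), 0.55 around CLDN7 (1.08), 0.46 around CLDN4 (0.67) and 0.61 around CRB3 (0.59). It was -0.44 around TJP1 (-1.10), -0.31 around EPCAM (-1.87), -0.22 around CDH1 (-0.99) and -0.58 around CLDN1 (-0.38). Thus CRB3, CLDN4 and CLDN1 lay within the middle 50% of genes of like GC content with shEZH2#3. TJP3, CLDN7, TJP1, EPCAM and CDH1 lay outside it, as 50% of the genes of like GC content do by definition. With shEZH2#1, CLDN4 (1.24 against a median of 0.17), CRB3 (0.92 against 0.34), CLDN1 (0.22 against -0.24), TJP1 (-0.48 against -0.23) and EPCAM (-0.90 against -0.22) lay outside, and TJP3, CLDN7 and CDH1 inside.

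**Figure D3:**
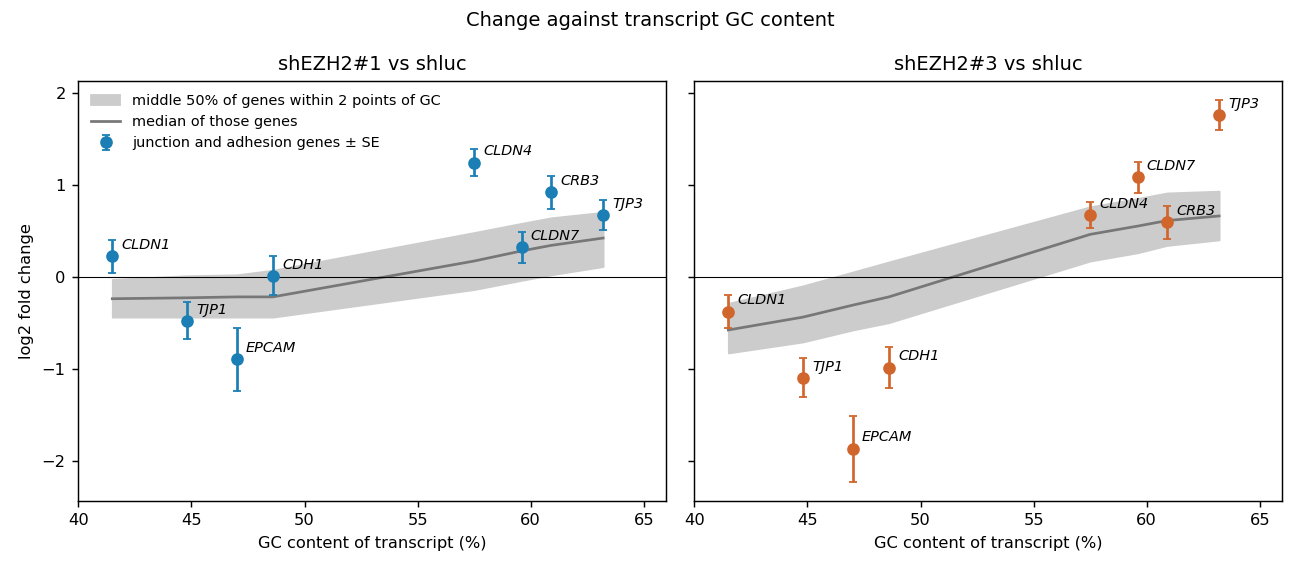
Log2 fold change ± SE of the 8 tested genes (points) against the GC content of their longest coding transcript, with shEZH2#1 (left) and shEZH2#3 (right). The grey line joins the medians of all tested genes within 2 percentage points of each gene's GC content, and the band their middle 50%. TJP3, EPCAM, CDH1, TJP1 and CLDN7 lie off the band with shEZH2#3, and CLDN4 lies far above it with shEZH2#1.

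After the correction for GC content and length, 3 of the 8 tested members were called higher with shEZH2#1 (CLDN4, CRB3 and CLDN1) and none lower. With shEZH2#3, 2 were higher (TJP3 and CLDN7) and 3 lower (EPCAM, CDH1 and TJP1). Of all tested genes 18.1% and 24.2% passed in these corrected fits.

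The members did not vary together across the libraries. Pearson's r of log2 CPM over the 9 libraries was 0.93 for CLDN4 with CRB3 and 0.90 for CLDN7 with TJP3, the highest of 28 pairs, but 0.35 to 0.53 between genes of these 2 pairs. TJP1 followed CDH1 (0.82) and EPCAM (0.80) and ran against CLDN7 (-0.96) and TJP3 (-0.90). CLDN4 and CRB3 had -0.04 and -0.18 with CDH1. Of the 28 pairs 14 were positive, with a median r of 0.04. Over all tested genes with a symbol, CDH1 was most like PALMD (0.993), FAM3C (0.991) and DNAJA2 (0.985), whose transcripts have 41.7%, 37.5% and 41.3% GC. These correlations share the group structure and the GC trend of the libraries and are a description.

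Other genes of the pathway were taken from 6 lists. Their counts of calls stand beside 19.0% of all tested genes with shEZH2#1 (11.2% higher and 7.89% lower). With shEZH2#3 the share was 44.2% (24.4% higher and 19.8% lower). After the correction the shares were 18.1% and 24.2%. Whether any list differs from these shares was not tested. Most other claudins were not expressed at a testable level: 3 of 19 were tested, and CLDN2, CLDN6, CLDN9, CLDN10 and CLDN18 were among those below 0.4 CPM in every group. CLDN15, a pore-forming claudin known from the intestine, rose with shEZH2#3 (1.73 to 3.74 CPM, 1.11 ± 0.32, adjusted p = 0.00954) and CLDN12 fell (6.67 to 3.61 CPM, -0.89 ± 0.23, adjusted p = 0.0042). None of the 3 passed with shEZH2#1, and both calls with shEZH2#3 were lost after the correction (0.52 and -0.29, adjusted p = 0.229 and 0.25).

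Of 9 tested further membrane proteins and scaffolds of the tight junction, 1 rose with shEZH2#1; for shEZH2#3 it was 4 up and 3 down. LSR, the angulin that places tricellular junctions, rose with both (from 31 CPM to 42.8 and 63.1; 0.46 ± 0.15, adjusted p = 0.0358, and 1.03 ± 0.15, adjusted p = 5.24e-05). Corrected, the rise with shEZH2#3 was 0.35 ± 0.09 (adjusted p = 0.0151). The call of LSR with shEZH2#1 was lost after the correction (-0.01, adjusted p = 0.961), with a replicate block (adjusted p = 0.0633), with no filter (0.0773), and without any 1 of shluc replicates 1 and 2 or shEZH2#1 replicates 2 and 3 (0.05 to 0.162). MARVELD2 (tricellulin), its partner at these sites, fell with shEZH2#3 (0.618 to 0.155 CPM, -1.96 ± 0.67, adjusted p = 0.0202). That call was lost after the correction (-1.46, adjusted p = 0.0932) and without any 1 of shluc replicate 2 or shEZH2#3 replicates 1 and 2 (adjusted p = 0.0506 to 0.117). The MARVELD2 level in the shEZH2#3 libraries was 0.0572, 0.187 and 0.221 CPM, where 1 count was worth 0.0572, 0.0624 and 0.0552. The scaffold MAGI1 also fell (-0.91 ± 0.29, adjusted p = 0.0178; -0.58 and 0.116 corrected), with libraries that overlapped the controls, and lost that call without any 1 of shluc replicate 2 or shEZH2#3 replicates 1 and 3 (adjusted p = 0.0544 to 0.112). SYMPK, a plaque protein that also works in RNA processing, rose (1.07 ± 0.15, adjusted p = 3.52e-05). After the correction 5 genes of this list were called higher and 1 lower with shEZH2#3, and 0 with shEZH2#1. The list median was -0.17 with shEZH2#1 and 0.36 with shEZH2#3.

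The apical polarity genes, partners of CRB3, had 2 rises and no fall among 13 tested with shEZH2#1, and 5 rises and 3 falls with shEZH2#3. PARD6A, an adaptor of the PAR complex that CRB3 binds, rose with both hairpins (from 13.9 CPM to 34.2 and 28.7; 1.30 ± 0.18 and 1.05 ± 0.18, adjusted p = 0.000164 and 0.000236) and kept both calls after the correction (0.74 and 0.34, adjusted p = 0.00043 and 0.0305). LLGL2, a basolateral polarity protein, also rose with both (162 CPM to 284 and 298; 0.81 ± 0.17 and 0.88 ± 0.17, adjusted p = 0.00298 and 0.000543), with corrected values of 0.42 (adjusted p = 0.00738) and 0.23, which did not pass (adjusted p = 0.0913). PALS1, which binds the tail of CRB3, fell with shEZH2#3 (8.03 to 4.28 CPM, -0.91 ± 0.21, adjusted p = 0.00207; -0.27 and adjusted p = 0.237 corrected). SCRIB rose with shEZH2#3 (0.58 ± 0.17, adjusted p = 0.0103) and stood at -0.08 after the correction (adjusted p = 0.533) and at 0.44 without shEZH2#3 replicate 2 (adjusted p = 0.0728). After the correction 2 genes of the list rose with shEZH2#1 and 1 with shEZH2#3, and none fell. List medians were 0.10 and -0.21.

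Among 13 tested partners of E-cadherin and other adherens junction genes, 1 rose and 2 fell with shEZH2#1; for shEZH2#3 it was 3 up and 6 down (medians -0.21 and -0.43). CTNNA1, alpha-catenin, which links cadherins to actin, fell with both hairpins (from 364 CPM to 237 and 253; -0.62 ± 0.16 and -0.53 ± 0.16, adjusted p = 0.00948 and 0.011; after the correction -0.37 and -0.27, adjusted p = 0.0164 and 0.0513). Without shEZH2#1 replicate 2 its fall with that hairpin had an adjusted p of 0.0523. CTNNB1, beta-catenin, fell with shEZH2#3 (58.9 to 33.8 CPM, -0.80 ± 0.16, adjusted p = 0.000583; -0.26 and 0.0987 corrected). The nectins NECTIN2 and NECTIN4 were higher with shEZH2#3 (0.86 ± 0.15 and 1.56 ± 0.51, adjusted p = 0.000227 and 0.0188), NECTIN2 also with shEZH2#1 (0.45 ± 0.15, adjusted p = 0.0425). NECTIN4 was low, at 0.239 to 3.31 CPM, and after the correction its value of 1.28 ± 0.53 did not pass (adjusted p = 0.0938), nor did it pass without shluc replicate 2 or shEZH2#3 replicate 3 (0.106 and 0.164). Corrected, NECTIN2 had 0.32 ± 0.08 with shEZH2#3 (adjusted p = 0.0115). The call of NECTIN2 with shEZH2#1 was lost after the correction (0.16, adjusted p = 0.209) and without any 1 of shluc replicates 1 and 2, shEZH2#1 replicates 2 and 3 or shEZH2#3 replicates 2 and 3 (0.0541 to 0.174), among 9 of 18 alternatives in all. After the correction 0 genes of the list rose and 2 fell with shEZH2#1; for shEZH2#3 it was 2 up and 1 down.

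Of 12 tested relatives of EPCAM and proteases that act on it, 1 rose and 1 fell with shEZH2#1; for shEZH2#3 it was 2 up and 3 down (medians -0.18 and -0.38). ST14 (matriptase), which cleaves EPCAM, rose with shEZH2#3 (42.9 to 91.7 CPM, 1.09 ± 0.16, adjusted p = 5.76e-05; 0.46 and adjusted p = 0.00831 corrected), and its inhibitor SPINT2 fell (6.15 to 3.52 CPM, -0.80 ± 0.25, adjusted p = 0.0129; -1.20 and adjusted p = 0.00129 corrected). Without shluc replicate 3 or shEZH2#3 replicate 1 the fall of SPINT2 did not pass (adjusted p = 0.052 and 0.069). ADAM10, a sheddase of E-cadherin, fell with both (-0.52 ± 0.18 and -0.91 ± 0.18, adjusted p = 0.0497 and 0.000726), and with neither after the correction (-0.17 and -0.27, adjusted p = 0.429 and 0.16). Its call with shEZH2#1 was lost under 13 of 18 alternatives, among them the removal of any 1 of shluc replicates 1 and 2, the shEZH2#1 libraries or shEZH2#3 replicate 3 (adjusted p = 0.0586 to 0.184). PSEN2, a catalytic subunit of gamma-secretase, rose with both (0.58 ± 0.14 and 0.57 ± 0.14, adjusted p = 0.0086 and 0.00398), with an adjusted p of 0.0512 for shEZH2#1 without its replicate 2. Corrected values of PSEN2 were 0.52 and 0.29 (adjusted p = 0.00145 and 0.0278).

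The list of transcription factors that repress or keep epithelial junction genes also held corepressors and the splicing regulators ESRP1 and ESRP2. It had no rise and 2 falls among 17 tested genes with shEZH2#1, and 4 rises and 2 falls with shEZH2#3 (medians -0.29 and -0.25). SNAI2, a repressor of CDH1 that acts on E-boxes, gave 4.61, 4.71 and 3.79 CPM in the controls; shEZH2#1 libraries held 2.78, 1.51 and 2.2, shEZH2#3 libraries 3.03, 3.12 and 2.32. Both hairpin groups lay below the controls. It fell with shEZH2#1 (-1.01 ± 0.27, adjusted p = 0.0138; 0.0886 without replicate 2 of that group). Its value for shEZH2#3, -0.63 ± 0.26, did not pass (adjusted p = 0.0579; -0.11 corrected), but did with upper quartile scaling, limma-voom or without shEZH2#1 replicate 1 (adjusted p = 0.0252, 0.0471 and 0.0475). ZEB1, another such repressor, was low and fell with shEZH2#3 by a narrow margin (1.83 to 0.875 CPM, -1.06 ± 0.43, adjusted p = 0.0493). That call was lost under 14 of 18 alternatives, the correction (-0.38, adjusted p = 0.506) and the removal of any 1 library other than shluc replicate 1 and shEZH2#3 replicate 3 (0.0525 to 0.286) among them. SNAI3 rose with shEZH2#3 from 0.269 to 1.1 CPM (2.01 ± 0.57, adjusted p = 0.00808; 1.34 and 0.0877 corrected, and 0.0766 without shEZH2#3 replicate 1), and HDAC2, a corepressor, fell (-0.73 ± 0.17, adjusted p = 0.00195; -0.10 and 0.715 corrected). The other calls of the list, outside the rule for named genes and picked after their values were seen, were TWIST2, ELF3, ESRP2 and CTBP1. TWIST2, a repressor, rose with shEZH2#3 (18.9 to 34 CPM, 0.84 ± 0.19, adjusted p = 0.0017, corrected 0.39 and 0.142). So did the epithelial transcription factor ELF3 (332 to 597 CPM, 0.85 ± 0.16, adjusted p = 0.000384, corrected 0.54 and 0.00196). The epithelial splicing regulator ESRP2 rose as well (38.3 to 61.9 CPM, 0.69 ± 0.15, adjusted p = 0.00145, corrected 0.16 and 0.288). The corepressor CTBP1 fell with shEZH2#1 (118 to 77.3 CPM, -0.61 ± 0.16, adjusted p = 0.0103; -0.86 and 0.000102 corrected), and for shEZH2#3 it passed after the correction (0.08 before, -0.46 and adjusted p = 0.00409 after). After the correction none rose and 3 fell with shEZH2#1, and 1 rose and 3 fell for shEZH2#3. TWIST1, GRHL2, GRHL3, OVOL1 and OVOL2 were below 0.5 CPM in every group and not tested.

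**Figure D4:**
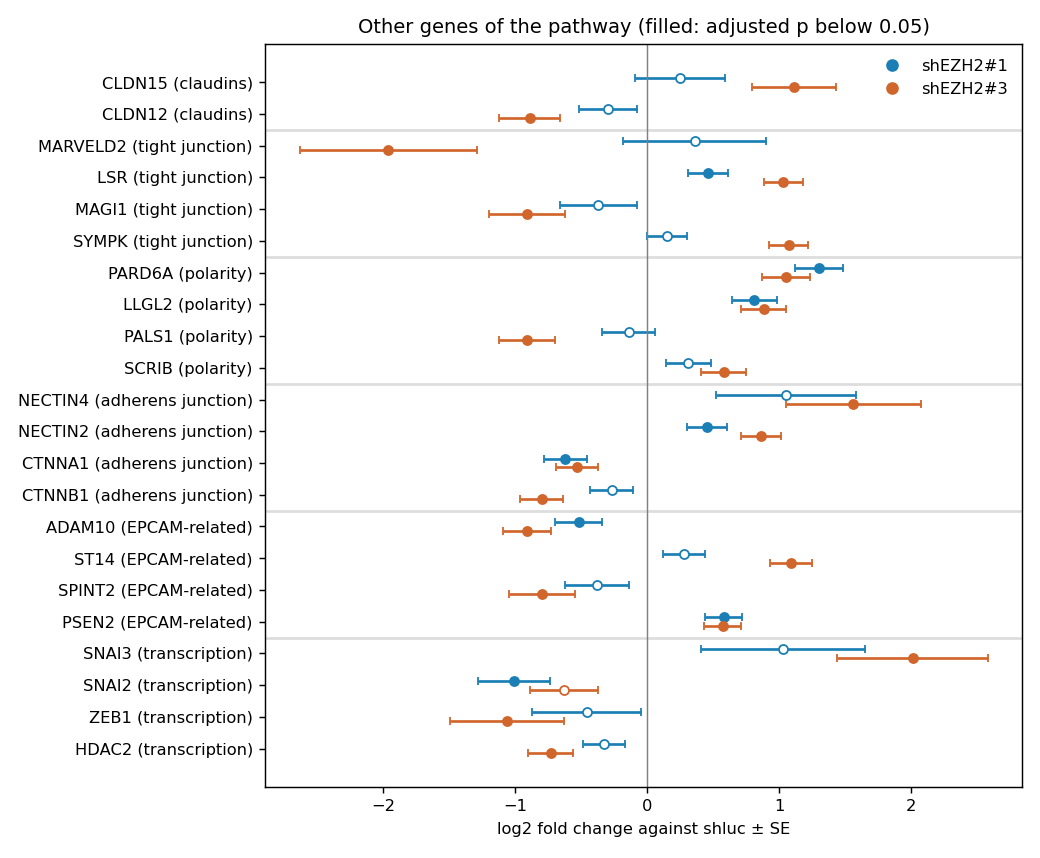
Log2 fold change against shluc ± SE (x axis) of the 22 genes named from the 6 lists, with shEZH2#1 in blue and shEZH2#3 in orange, without GC correction. Filled symbols have an adjusted p below 0.05; PARD6A, LLGL2, LSR, NECTIN2 and PSEN2 are filled on the positive side with both hairpins, and CTNNA1 and ADAM10 on the negative side.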

How the data were processed

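Poly(A) RNA of KYSE180 cells was made into dUTP-stranded libraries, per the labels' protocols. The submitters' processing notes name fastp, HISAT2, StringTie and GRCh38 (hg38), without versions. For the counter, annotation and strand setting: not given in the sources used here. What the authors deposited is an estimated count for each Ensembl gene and library, with no normalization. Symbols came from a naming table (51996 identifiers) or GENCODE 29 (342); 5567 had none. Positions, lengths and GC content are those of GENCODE 29 (the longest protein-coding transcript), promoters those of RefSeq.

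Counts were rounded and tested with edgeR 4.0.16 (R 4.3.3): TMM, filterByExpr, a quasi-likelihood fit over all 9 libraries with a mean per group, and Benjamini-Hochberg adjustment over 13252 genes. The SE is the unshrunken fold change over the square root of F, and 95% intervals are 1.96 SE to either side. The correction for GC content and length used a smooth per library (span 0.3) as an offset. Log2 CPM had a prior count of 2. Alternatives were limma-voom (limma 3.58.1), DESeq2 1.42.0, scaling by RLE or the upper quartile, no filter, the groups compared only, a replicate block, removal of 2 abundant unnamed genes, and each library left out.

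The members, the 6 lists and the alternatives were chosen with earlier results of these data known. Named list genes are up to 4 per list with the largest mean change among those called with at least 1 hairpin.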

Additional observations from a re-analysis of the deposited data

Results flagged for a closer look

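For 6 of the 8 tested members the 2 hairpins differed, beside 25.0% of all tested genes, tested as shEZH2#1 against shEZH2#3 with edgeR's quasi-likelihood test. The log2 differences (shEZH2#1 minus shEZH2#3) were 1.00 for CDH1, 0.62 for TJP1, 0.61 for CLDN1 and 0.57 for CLDN4, each higher in all 3 shEZH2#1 libraries, and -1.09 for TJP3 and -0.76 for CLDN7, each lower in all 3. Those of CDH1, CLDN4, TJP3 and CLDN7 passed under every alternative run. The call of TJP1 was lost under 8 of 18 alternatives and that of CLDN1 under 5. EZH2 itself differed between the hairpins by 0.02 ± 0.19 (adjusted p = 0.943).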

How the results depend on the processing

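Of 432 values of the 8 tested genes under the alternatives (3 comparisons, 18 settings each), 400 kept their side of the threshold. The number of these genes called was 3 with shEZH2#1 (3 to 4 over the alternatives), 7 with shEZH2#3 (5 to 8) and 6 between hairpins (4 to 8). With shEZH2#1 0 were lower, and 1 with limma-voom, no filter or only the groups compared (EPCAM) or without shluc replicate 3 (TJP1) or shEZH2#3 replicate 1 or 2 (EPCAM). Leaving out 1 library at a time gave 3 to 4, 7 to 8 and 4 to 6. Over all genes the count was 2523 with shEZH2#1 (1159 to 3063 with 1 library left out; 1159 without shEZH2#1 replicate 3, 1344 without its replicate 2 and 1550 without shluc replicate 2), 5861 with shEZH2#3 (4251 to 5823) and 3311 between hairpins (1956 to 3941; 1956 without shEZH2#1 replicate 1). Correcting for GC content and length, the count with shEZH2#3 was 3211. Among the members and the other named genes alone, 3 called values changed sign without passing. They were CRB3 (-0.02) and SCRIB (-0.08) with shEZH2#3 and LSR (-0.01) with shEZH2#1. Sign changes over all genes were not counted. Upper quartile scaling moved the median of all genes with shEZH2#3 from -0.01 to -0.18 and its split from 3237 higher and 2624 lower to 2421 and 3720, and between hairpins from 1254 and 2057 to 2207 and 1404. The correction moved the split with shEZH2#1 from 1478 higher and 1045 lower to 1091 and 1303, and removal of the 2 unnamed genes to 1707 and 779. The share of counts in these unnamed genes followed the groups: 6.96 to 9.28% in shluc, 15.8 to 22.6% for shEZH2#1 and 5.97 to 11.6% for shEZH2#3. Same-numbered libraries did not deviate together (r = -0.12 to 0.08). With 3 libraries a group this cannot decide whether equal numbers mark a shared culture or day, which the labels do not state. With a replicate block 2208, 5482 and 2938 genes passed, and 3, 7 and 6 of the members. The cause of these shifts was not tested. EPCAM, CDH1, OCLN and CLDN3 are limited by depth, as are MARVELD2, SNAI3 and NECTIN4 of the lists.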

Other observations

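Some further junction genes were picked after their values were seen. JUP, plakoglobin of adherens junctions and desmosomes, was the most abundant of them: the controls held 700, 580 and 599 CPM, shEZH2#1 held 481, 570 and 574, and shEZH2#3 held 1070, 1410 and 1290. It rose with shEZH2#3 (1.00 ± 0.16, adjusted p = 0.000112; corrected for GC content and length, 0.40 and 0.006) and differed between hairpins by -1.21 ± 0.16 (adjusted p = 2.44e-05). With shEZH2#1 it had -0.21 ± 0.16 (adjusted p = 0.38), and -0.54 after the correction (adjusted p = 0.00139). CTNND1, p120-catenin, which steadies cadherins at the membrane, fell with both hairpins (137 CPM to 93.6 and 99.5; adjusted p = 0.0252 and 0.0297), and with neither after the correction (adjusted p = 0.207 and 0.698).

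CDH2, the cadherin of mesenchymal and neural cells, stood at 7.96 CPM in shluc and fell together with CDH1 in shEZH2#3 (4.97 CPM, -0.68 ± 0.21, adjusted p = 0.0142; 0.364 corrected). CDH5, the endothelial cadherin, gave 19.2, 19.7 and 13.4 CPM in the controls; shEZH2#1 libraries held 7.92, 7.61 and 7.13, shEZH2#3 libraries 31.7, 31.1 and 27. It moved in opposite directions with the hairpins (-1.20 ± 0.18 and 0.78 ± 0.17, adjusted p = 0.000222 and 0.00121), also after the correction (-1.18 and 0.55, adjusted p = 0.000197 and 0.00992). Of the other endothelial markers found, KDR had no count in any library, and VWF rose with shEZH2#3 (0.321 to 1.14 CPM, log2 fold change 1.83, adjusted p = 0.0147). For shEZH2#1 the VWF value of 0.78 did not pass (adjusted p = 0.397). Both VWF values are uncorrected.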
